A study of Mesocricetus auratus with 24 samples.

Results

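Positions of extreme read coverage were studied in reduced representation bisulfite libraries from Syrian hamster fetal cells. A position was a CpG cytosine on 1 strand. The members were selected on read coverage: a position was taken when it was among the top 0.1% of a library's positions by coverage in at least 12 of the 24 libraries and was not mitochondrial. This rule gave 1126 of 3197570 positions outside the mitochondrial sequence. Coverage is therefore only described below. Methylation was not used by the rule.

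The libraries came from a cell transformation assay, in which colonies grown from single fetal cells are scored for a change of morphology after exposure to a carcinogen. The carcinogen used, benzo[a]pyrene (B[a]P), is a combustion product whose metabolites bind DNA. The bypass group was sampled on day 94, after a culture had escaped senescence, and the senescent group on day 48 of that culture, which grew from 1 transformed, B[a]P-treated colony typed male in an assay on pooled female and male fetuses. The transformed and the normal colony groups were cultures of 19 to 25 days grown from colonies of transformed (MT) or normal (N) morphology, all treated with B[a]P at 5 µg/mL, from a single male fetus. The B[a]P pools and the vehicle pools each held about 60 colonies on day 9, after 5 µg/mL B[a]P or after 0.2% DMSO, also from a single male fetus. Each group had 4 libraries. Those of the pools and colonies were described as biological replicates. Because these came from a single male fetus, their p-values do not extend to other fetuses. The libraries of the bypass and senescent groups were technical replicates of 1 culture, so their p-values measure technical spread and do not extend to other cultures.

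In this assay, genomic DNA is cut by an enzyme at CpG-rich sites, size-selected and treated with bisulfite, which changes unmethylated cytosine so that it is read as T. The percent of reads that keep C is the methylation level. Reads stack at the ends of the cut fragments, so each fragment has its own depth. A sequence that is present in many copies in the genome but fewer in the assembly can gather the reads of all copies at 1 place, and its methylation level is then an average over copies. Arrays of ribosomal RNA genes, satellites and transposable elements are known examples of multi-copy sequence. The copy number of these positions was not measured and their part in the coverage was not tested. Coordinates are those of the deposited files, whose genome build was not given in the sources used here. No gene or repeat annotation of that build was used, so the positions are named by scaffold, base and strand (F forward, R reverse).

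Libraries held 809562 to 1484688 positions with a median of 21 to 38 reads per position. The coverage that marks the top 0.1% of a library, called its limit here, lay between 469 and 849 reads. The members averaged 387 to 117860 reads per library, with a median over members of 1035, and 1124 of the 1126 were listed in all 24 libraries. Normal colony replicate 2 stood apart: 771 of the members exceeded its limit, against 985 to 1075 in the other normal colony libraries, although its median coverage was the highest of the 24. Results of the colony comparison that rest on it are given with and without it.

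Membership had a graded edge. All 24 libraries were past the limit for 421 members and exactly 12 for 84, while 69 positions outside the set were past it in 11. Of members at the edge, the reverse-strand position 176462 of KB708466.1 averaged 1955 reads (85 to 5880 by library) at 0.03% methylation. The forward position 20342758 of KB708139.1 averaged 958 reads at 71.8%. Just outside, the reverse position 11112340 of KB708161.1 averaged 700.3 reads at 68.7% and the forward position 22102532 of KB708141.1 averaged 673 reads at 77.0%. The coverage of such positions differed widely between libraries.

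Members lay in short clusters. Joining members at most 1000 bases apart gave 446 clusters on 219 of the 7945 scaffolds. Of these, 177 held 1 member, 227 held 2 to 4 and 42 held 5 or more, which together contained 31.6% of the members. The median span of the 269 clusters with several members was 45 bases, 254 spanned under 100 bases, and 9 spanned over 200. Most clusters were on 1 strand only, with 211 on the forward strand, 219 on the reverse strand and 16 on both. At 1000 members (88.8%) the cytosine paired with them on the opposite strand had less than 0.1 of their coverage, and at 724 it was never listed. Coverage of 1 strand was also common elsewhere. The paired cytosine was listed in at least 12 libraries for 20.9% of members. For other positions listed in at least 12 libraries on the same scaffolds the share was 31.6%.

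Many scaffolds held more members than their number of positions alone would give, and some are given as examples. KB708128.1 held 84 members in 14 clusters, 7.46% of all members against 1.80% of the positions listed in at least 12 libraries. Most of these, 56 of the 84, lay in 1 cluster of 604 bases, so the high share was largely that of 1 place. KB708280.1 had 17 members among only 283 such positions (6.01%). Scaffolds with very few such positions could reach higher shares, as at KB712031.1 with 8 members among 13 (61.5%). Scaffolds whose last listed position was under base 50000 held 9.68% of the members against 3.30% of those positions. These shares describe the members and were not tested.

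The reads were unevenly divided among clusters. The 5 clusters with the highest coverage share held 30.9% of all reads on members, and the first 20 held 50.5%. The highest share, 0.533% of a library's reads on average, was that of 2 forward-strand positions, bases 2164 and 2226 of KB710729.1, with a mean of 117633 reads per position. Next came 4 forward positions at KB708705.1 from 10484 to 10508 (0.491%), 56 positions at KB708128.1 from 57472 to 58075 (0.404%), 13 positions at KB708172.1 from 1611410 to 1612533 (0.162%) and 5 reverse positions at KB708184.1 from 10430103 to 10430166 (0.145%).

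Together the members took 4.34% to 6.46% of the reads in a library. The share averaged 5.80% ± 0.152 in bypass and 5.99% ± 0.314 in senescent libraries (SD, n = 4 each). It was 5.56% ± 0.132 in transformed and 5.38% ± 0.699 in normal colonies, and 5.49% ± 0.215 in the B[a]P pools and 5.50% ± 0.141 in the vehicle pools. In each of these pairs the ranges overlapped. The low end belonged to normal colony replicate 2 at 4.34%, with the other normal libraries between 5.63% and 5.80%. The transformed minus normal difference of 0.178 percentage points became -0.170 without that library.

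**Figure D1:**
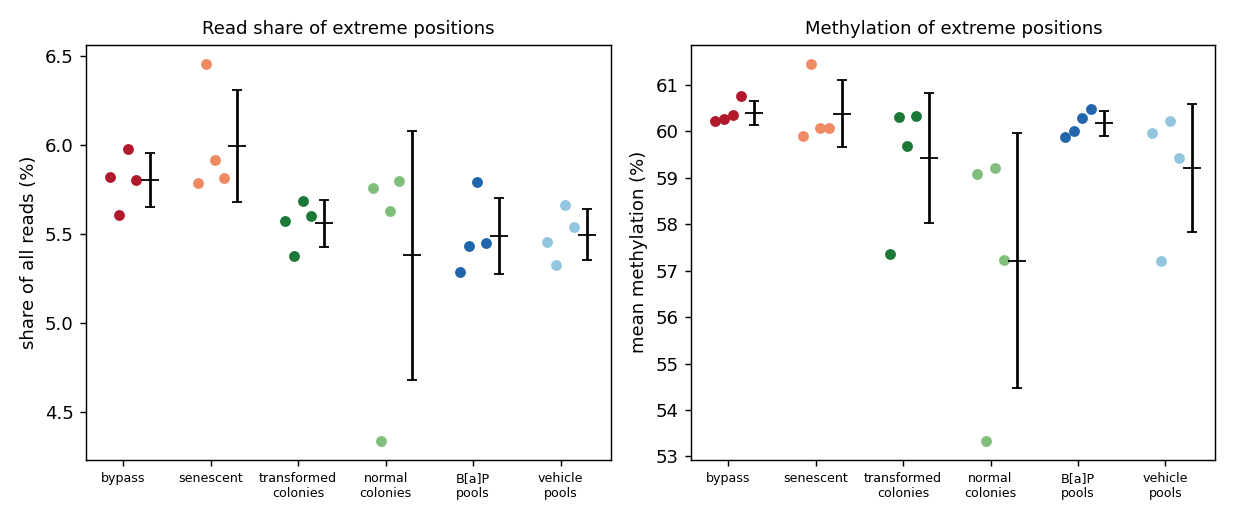
Share of all reads on the 1126 positions of extreme coverage (left, percent) and their mean methylation (right, percent), with 1 point per library in 6 groups of 4 and the group mean ± SD as a black bar beside the points. The axes do not start at 0; the groups of each pair overlap in both panels, and normal colony replicate 2 is the lowest point of each (4.34% of reads, 53.3% methylation).

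Members were more often of intermediate methylation than other positions of the same libraries. The shares are described without a test, and the sets differ in depth. Averaged over the libraries, 171 members (15.2%) were under 20% methylated, 563 (50.0%) were between 20% and 80%, and 392 (34.8%) were at 80% or above. Library by library, 42.8% to 49.6% of members were intermediate. For comparison, the share was 28.0% to 38.8% over 4903 positions in the next coverage tier, above the 99th percentile in at least 12 libraries and listed in all 24. Over the 16126 positions that were not members but were listed in all 24 libraries, it was 21.9% to 34.8%. The 4903 positions of the tier are included in these 16126. The usual pair of modes near 0% and 100% was therefore present in all 3 sets, but the valley between them was shallower among members. Below 10% methylation lay 12.1% of members against 22.3% of those other positions, and from 90% upward 19.6% against 22.5%.

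**Figure D2:**
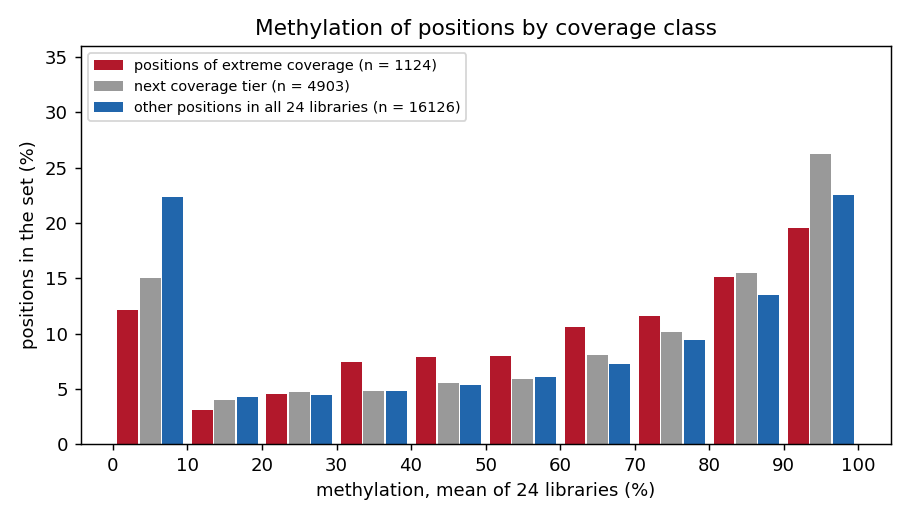
Percent of positions (vertical axis) in each 10-point class of methylation, averaged over the 24 libraries (horizontal axis, percent), for the positions of extreme coverage (red), the next coverage tier (grey) and the other positions listed in all 24 libraries (blue). The blue set includes the grey one. The red bars are higher than the blue ones in each class between 20% and 90% and lower at both ends, with 12.1% against 22.3% in the first class.

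Within the set, the most deeply covered members were most often intermediate. Of the 421 members past the limit in all 24 libraries, 63.9% were intermediate, against 40.6% of those past it in 18 to 23 and 43.5% of those past it in 12 to 17. Of positions past it in 6 to 11 libraries 41.0% were intermediate, and of those past it in 1 to 5 libraries 33.6%, so the share stood out in the members past the limit in all 24 libraries and was similar from 6 to 23. By mean coverage, 67.0% of the top quartile of members were intermediate and 41.8% of the bottom quartile. Individual members kept their class to different degrees: 109 were under 20% in all 24 libraries, 132 were at 80% or above in all, 178 were intermediate in all, and 69 fell under 20% in some library and reached 80% in another.

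The members' levels also varied less between replicate libraries than those of less covered positions. The median SD over 4 replicates was 3.67 points in bypass and 3.49 in senescent libraries, 5.13 in transformed and 6.80 in normal colonies, and 4.47 in the B[a]P and 5.39 in the vehicle pools. Over the other positions listed in all libraries it was 6.74, 7.15, 10.3, 12, 10.7 and 11.8 points in the same groups. The members' median coverage was many times higher, and the part of depth in this difference was not tested.

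Neighbouring cytosines in a cluster usually had similar levels, but sharp steps occurred. Over 664 neighbours on 1 strand, at a median distance of 15 bases, the levels differed by a median of 7.72 points. At 33 neighbours the difference was over 50 points, and 8 of these were within 10 bases. At KB708159.1 on scaffold bases 14438090, 14438096 and 14438103, the levels were 97.7%, 1.19% and 94.5% over the 24 libraries. At KB708513.1, bases 22294 and 22297 were 93.0% and 0.791% methylated. A sequence difference that removes the CpG, such as C to T, is read as an unmethylated cytosine in bisulfite data. No genome sequence was used here, so its part in these steps was not tested. For the 43 CpG pairs with both strands in the set, the strands differed by a median of 1.86 points, with 36 pairs under 10 and 4 over 50.

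The clusters with the most members showed how differently such places behaved. At KB708154.1 from 8909206 to 8909282, 24 positions on both strands stayed between 76.1% and 78.4% in all 6 group means. At KB708165.1 from 7258391 to 7258474, 11 positions stayed between 85.7% and 86.9%. At KB708172.1 from 1611410 to 1612533, 13 positions lay between 65.4% in normal colonies and 69.4% in the vehicle pools. At KB708967.1 from 7221 to 7341, 11 positions averaged 76.7% in bypass and 76.2% in senescent libraries, 70.8% in transformed and 69.5% in normal colonies, and 72.2% in the B[a]P and 69.7% in the vehicle pools. The first 3 of these clusters thus moved by a few points at most between groups, and in the last the normal colonies ranged from 55.0% to 77.9%.

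The largest cluster, 56 positions over 604 bases of KB708128.1, had 28 members on each strand and 16 CpG pairs with both strands in the set. Its mean methylation was 68.5%, 68.4%, 69.5% and 69.8% in bypass libraries, against 63.1%, 64.3%, 63.2% and 63.3% in senescent libraries. In transformed colonies it was 36.5%, 51.0%, 47.0% and 39.1%, against 51.8%, 37.6%, 37.3% and 33.9% in normal colonies. The B[a]P pools had 41.7%, 43.1%, 42.7% and 41.8%, against 42.6%, 39.8%, 45.4% and 40.7% in the vehicle pools. The bypass libraries all lay above the senescent ones, while the other pairs of groups overlapped. Colonies spread more widely than pools of many colonies.

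The higher level in the bypass and senescent culture extended over nearly the whole cluster. At 54 of the 56 positions both groups lay above all 4 group means of the colonies and pools, and at the other 2 both lay below. Those 2 were forward positions of low level: base 57603, at 3.51% in bypass and 3.33% in senescent libraries and 8.55% to 10.5% in the other groups, and base 57898, at 4.78% in bypass and 3.70% in senescent libraries and 15.7% to 21.2% in the other groups. At the CpG of bases 57635 and 57636 the strands disagreed, with 1.41% on the forward and 69.4% on the reverse strand in bypass libraries, at means of 1093 and 8045 reads. Bypass exceeded senescent at 53 positions and was lower at 3, with a median difference of 4.80 points and a range from -1.06 to 15.05 over all 56. This culture came from an assay on pooled fetuses and the colonies and pools from a single male fetus, so culture time, origin and senescence cannot be told apart here. Of the 56 positions, 3 were called higher in bypass by the test described next, all near the far end of the cluster.

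**Figure D3:**
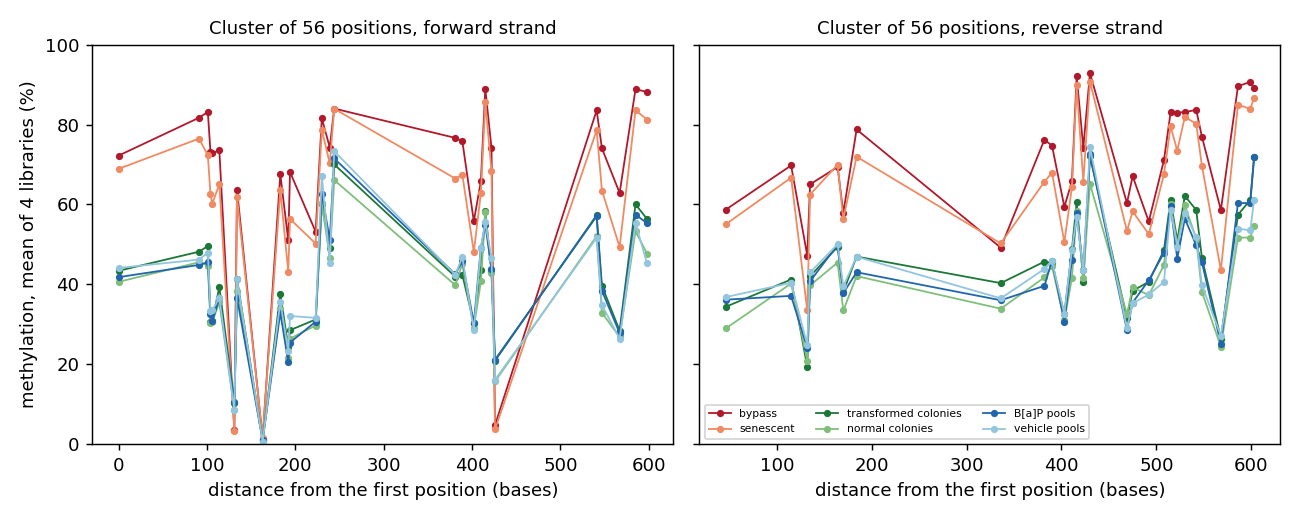
Methylation (vertical axis, percent, mean of 4 libraries) along the largest cluster by distance from its first position (horizontal axis, bases), forward strand left and reverse strand right, with 1 line per group. The bypass and senescent lines run above the 4 lines of colonies and pools at 54 of 56 positions.

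Methylated and unmethylated reads were compared between bypass and senescent libraries by a quasi-binomial model fitted over all 42062 positions with at least 10 reads in the 8 libraries and pooled methylation of 5% to 95%. A position was called when its Benjamini-Hochberg adjusted p was below 0.05 and its group means differed by 10 points or more. Of the 1126 members, 835 in 354 clusters were tested and 291 lay outside the range of levels. Of the tested members, 74 were called, 40 higher and 34 lower in bypass, on 49 scaffolds. That is 8.86% of the members tested, against 1.93% of all positions tested (higher 1.21%, lower 0.723%). In the next coverage tier 206 of 3460 tested positions (5.95%) were called. The members tested had a median coverage of 1152 reads against 59.3 over all positions tested, and the calls were therefore repeated at lower depth. When deeper positions were thinned to 30 reads in each library, 2 of the 835 members (0.24%) and 0.138% of all positions were called. Among the 13277 positions with 30 or more reads in all 8 libraries, which then had equal depth, 36 (0.271%) were called. This last count was added after seeing the data, and at equal depth the share of members called was near that of all positions. Of the 10 members named below for their rise or fall, those at KB708359.1 and KB708133.1 kept the call at that depth and the other 8 lost it. The differences of these 8 were nevertheless large after thinning, at 49.2 to 51.7 points for the 3 rises and at -36.7 to -69.2 points for the 5 falls.

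Differences of 10 points or more were less frequent in the members, at 20.7% of tested members and at 64.1% of all tested positions, which had fewer reads. After thinning, at the positions with 30 or more reads in all 8 libraries, the shares were 28.0% of members and 57.3% of all such positions. The median difference was -0.64 points over members and 3.17 over all positions tested. Called members moved by medians of 30.99 points upward and -28.34 points downward. Groups did not overlap at 178 of the 835 members (21.3%), against 7.37% of all positions. In the next coverage tier they did not overlap at 499 of 3460 positions (14.4%). The sets differed in depth, and its part in these shares was not tested.

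Called members lay in 56 clusters. Of these, 29 had several tested members, in 20 all of these differed in the same direction, and in 9 all were called. In 14 clusters several members were called, and in none of these in both directions. Members of a short cluster on 1 strand can be read on the same reads. This agreement in direction is therefore not independent support for the calls. edgeR's quasi-likelihood test called 25 members (2.99%), all of them among the 74, against 0.112% of all positions. A test without squeezing of dispersions called 32 members (3.83%), against 1.00% of all positions. Of the 74, 39 were called again whichever library was left out, while the count itself was 49 without bypass replicate 1 and 46 without senescent replicate 1.

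The clearest rise was at KB708133.1 from 20770484 to 20770527, where all 3 forward positions were called. Base 20770505 was 96.8%, 95.7%, 98.5% and 99.3% methylated in bypass libraries, against 24.2%, 23.3%, 23.1% and 14.9% in senescent libraries, at 1716 to 3400 reads. The groups were far apart, with a difference of 76.16 points (adjusted p = 2.63e-10). Over the whole cluster, bypass averaged 85.1% ± 2.02 and senescent 19.2% ± 1.64 (SD, n = 4 each). Transformed colonies averaged 4.40% ± 1.44 and normal colonies 13.8% ± 14.6, and B[a]P pools 10.8% ± 3.77 and vehicle pools 11.8% ± 3.19. This was also the cluster with the widest range of group means, and only the bypass group mean was above 20%. The next widest range was at the reverse position 19586 of KB708466.1, at 61.8% ± 8.27 in bypass and 75.2% ± 10.4 in senescent libraries, 11% ± 17.5 in transformed and 16.7% ± 19.4 in normal colonies, and 14.1% ± 2.66 in the B[a]P pools and 13.6% ± 8.04 in the vehicle pools.

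The rise with the widest gap was at the reverse position 1123872 of KB708359.1, with 99.7%, 83.3%, 99.2% and 93.3% in bypass libraries, against 12.8%, 7.65%, 11.2% and 0.87% in senescent libraries. The difference was 85.75 points (adjusted p = 9.41e-05). Its cluster of 2 members held 0.597 of the senescent read share in bypass, beside 0.482 for its surroundings. The library ranges of the cluster's share overlapped between the groups. The forward position 50171538 of KB708127.1 averaged 60.8% ± 13.6 in bypass and 6.29% ± 4.37 in senescent libraries (adjusted p = 0.00167). The reverse position 8373454 of KB708182.1 averaged 86.8% ± 6.13 in bypass and 42.2% ± 8.10 in senescent libraries (adjusted p = 0.000527), a call that edgeR did not make (adjusted p = 0.0628). The forward position 2771954 of KB708200.1 averaged 63.7% ± 17.0 in bypass and 19.9% ± 14.2 in senescent libraries (adjusted p = 0.0210), but that call was lost without bypass replicate 1, 2 or 3 and without senescent replicate 1 or 4 (adjusted p = 0.0773 to 0.102). It was also lost without squeezing and with edgeR (adjusted p = 0.125 and 0.394).

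Among the falls, the forward position 12300804 of KB708155.1 was 10.6%, 14.6%, 13.8% and 5.52% methylated in bypass libraries, against 62.5%, 99.1%, 73.5% and 85.1% in senescent libraries. It fell by 68.96 points (adjusted p = 0.000401), and the groups did not overlap. The forward position 1241982 of KB708312.1 averaged 34.1% ± 7.22 in bypass and 95.5% ± 4.62 in senescent libraries (adjusted p = 3.11e-05). The reverse position 20031711 of KB708129.1 averaged 15.5% ± 6.94 in bypass and 66.3% ± 11.1 in senescent libraries (adjusted p = 0.00150). The other falls named by the same rule were at the reverse position 2675413 of KB708158.1, with 36.5% ± 7.17 in bypass and 81.9% ± 14.0 in senescent libraries (adjusted p = 0.00527), and the forward position 55053 of KB708574.1, with 42.3% ± 6.73 and 86.1% ± 4.04 in the same groups (adjusted p = 3.11e-05). With edgeR the calls at KB708155.1 and KB708158.1 were lost (adjusted p = 0.0542 and 0.444), and without squeezing that at KB708158.1 (adjusted p = 0.0656). In each of the falls the bypass libraries stayed between near absence and intermediate levels, while the senescent libraries were mostly above 60%.

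A gain from a nearly unmethylated state was seen in 1 of the clusters with most members. At KB708226.1 from 892409 to 892484, 14 forward positions averaged 16.1%, 13.4%, 16.1% and 14.9% in bypass libraries, against 5.36%, 4.81%, 2.78% and 3.84% in senescent libraries. Colonies and pools had group means between 1.03% and 1.68%. Much of the difference, but not all of it, lay at the cytosines that were called. Base 892453 averaged 53.5% ± 9.16 in bypass and 11% ± 9.15 in senescent libraries (adjusted p = 0.0100). Base 892466 averaged 48.3% ± 15.1 and 11% ± 4.91 in the same groups (adjusted p = 0.00887). Base 892437 averaged 31.8% ± 17.7 and 0.518% ± 0.900 (adjusted p = 0.00301).

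The called members were placed beside the colonies and pools, which the call did not use. The 40 called higher averaged 75.0% in bypass and 41.9% in senescent libraries, 49.4% in transformed and 45.6% in normal colonies, and 45.4% in the B[a]P and 46.1% in the vehicle pools. The 34 called lower averaged 35.1% in bypass and 66.0% in senescent libraries, 64.9% in transformed and 59.1% in normal colonies, and 68.9% in the B[a]P and 66.5% in the vehicle pools. In both lists the group mean of bypass was the one apart from the other 5, and the bypass and senescent values were fixed by the choice of members. These are averages, and members that followed them were not counted. At the called base 58039 of KB708128.1, senescent libraries also stood apart, at 49.4% against 26.4% to 28.4% in colonies and pools.

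**Figure D4:**
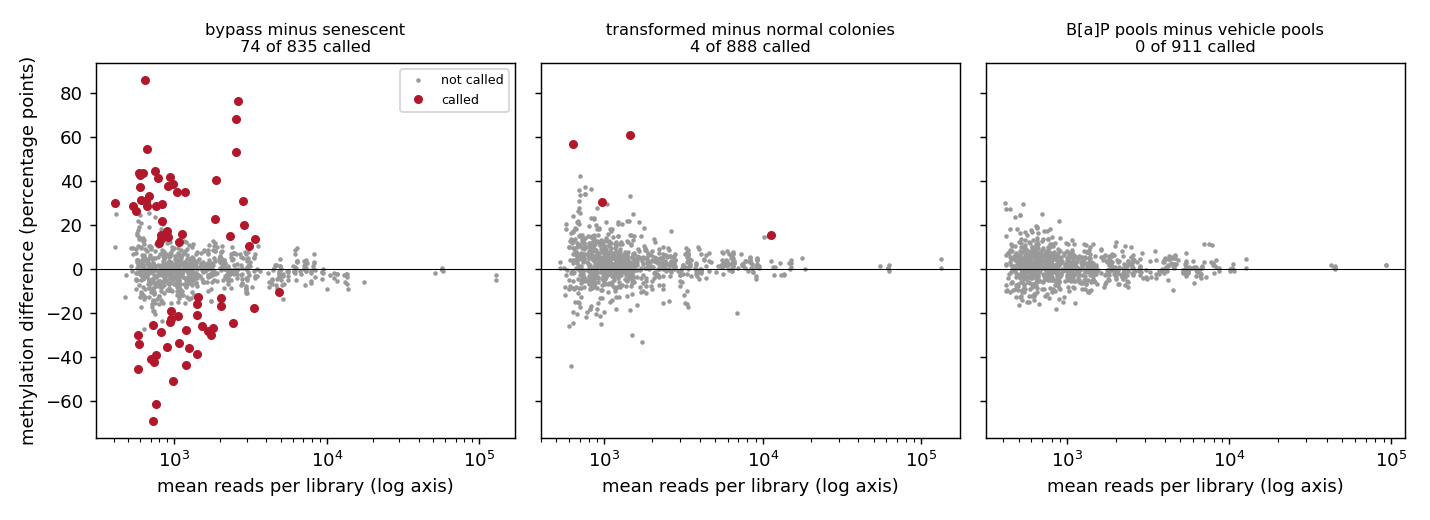
Difference in methylation (vertical axis, percentage points) against mean reads per library (horizontal log axis) for each tested member in the 3 comparisons, with called members in red. In bypass minus senescent 74 of 835 members were called in both directions, in transformed minus normal colonies 4 of 888, and in B[a]P minus vehicle pools 0 of 911.

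Averaged over all members, methylation did not separate the bypass and senescent groups. It was 60.39% ± 0.25 in bypass and 60.37% ± 0.725 in senescent libraries (SD, n = 4 each), a difference of 0.016 points. Over the other positions listed in all libraries it was 56.94% in bypass and 55.60% in senescent libraries. Weighting each member by its reads gave a difference of -0.63 points. Of the 5 clusters with the highest read share, that on KB708128.1 was higher in every bypass library than in every senescent one (69.1% ± 0.673 in bypass and 63.5% ± 0.534 in senescent libraries), and 2 were lower in every bypass library, all by less than 10 points: KB710729.1 from 2164 to 2226 averaged 71.3% ± 0.705 in bypass and 75.2% ± 0.975 in senescent libraries, and KB708184.1 from 10430103 to 10430166 averaged 49.7% ± 1.78 in bypass and 54.9% ± 1.97 in senescent libraries. KB708705.1 from 10484 to 10508 was 90.4% ± 0.289 in bypass and 90.6% ± 0.136 in senescent libraries, so its groups differed by less than their spread.

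In some stretches of the genome bypass libraries held a lower share of reads than senescent libraries, and the clusters inside these stretches fell into 2 kinds. The coverage of non-member positions within 250 kb of each cluster was compared for the 278 clusters with at least 50 such positions. Positions under 10 reads are not listed and added no reads to this sum, while members were listed in nearly all libraries. The ratios of surroundings and members are therefore not fully alike, and the part of this cutoff was not tested. The bypass over senescent ratio of the surroundings was below 0.7 around 12 clusters with 47 members, between 0.482 and 0.615. At 8 of the 12 clusters the members' own share was below 0.7 as well, and at 4 it was not. The bypass and senescent libraries overlapped at some of these 8. Relative to the senescent mean, the highest bypass library was at 0.861 and the lowest senescent one at 0.788 at KB708359.1. These values were 0.798 and 0.795 at KB708178.1 from 10405751 to 10405760, and 0.634 and 0.608 at KB708217.1 from 6377159 to 6377176. At the rest of the 8 the ranges did not overlap. Among the other 266 clusters the median ratio of the members' share was 0.976, and 4 were below 0.7.

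The clusters that lost coverage with their surroundings included 3 that were nearly unmethylated. At KB708217.1 from 6175678 to 6175733 the 10 members had 0.457 of the senescent share, beside 0.518 for the surroundings, at 0.176% methylation in bypass and 0.305% in senescent libraries. At KB708236.1 from 243499 to 243544 the 7 members had 0.455 beside 0.492, and at KB708293.1 from 502671 to 502697 the 4 members had 0.516 beside 0.573. The mean methylation of these was 0.362% and 0.270%. The single member at base 5713700 of KB708217.1 also kept step with a ratio of 0.504 beside 0.484. It was among the members called higher, with 92% ± 8.70 in bypass and 50.7% ± 7.14 in senescent libraries (adjusted p = 0.00254).

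The 4 clusters that did not follow their surroundings were KB708172.1 from 1611410 to 1612533, with a ratio of 0.899 beside 0.615, base 4526405 of KB708236.1, with 1.25 beside 0.503, base 2445899 of KB708293.1, with 1.08 beside 0.603, and base 17533832 of KB708158.1, with 1.14 beside 0.560. On KB708236.1 the bypass libraries ran from 1.19 to 1.29 of the senescent mean at base 4526405, and the senescent libraries from 0.823 to 1.11. At KB708172.1 the bypass libraries ran from 0.838 to 1.00 and the senescent ones from 0.940 to 1.04, which overlap. The ranges also overlapped, and were wider, at KB708293.1, with 0.728 to 1.36 in bypass and 0.786 to 1.20 in senescent libraries, and at KB708158.1, with 0.866 to 1.40 in bypass and 0.614 to 1.23 in senescent libraries. On KB708236.1 and KB708293.1 both kinds of cluster were thus found on 1 scaffold. Their bypass and senescent methylation was 69.1% and 68.6% at KB708172.1, 20.7% and 22.8% at KB708236.1, 94.8% and 95.4% at KB708293.1, and 57.3% and 65.8% at KB708158.1. Of the members called, 70 lay outside the 8 scaffolds of lower bypass coverage, counted without a new fit or adjustment.

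**Figure D5:**
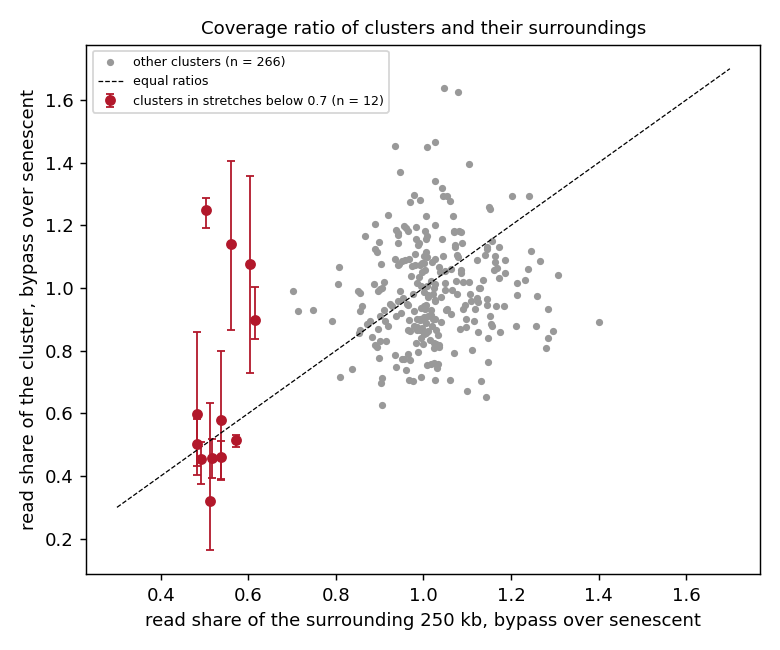
Bypass over senescent ratio of the read share of each cluster (vertical axis) against that of the non-member positions within 250 kb of it (horizontal axis), for 278 clusters. Red points are the 12 clusters whose surroundings are below 0.7, with bars from the lowest to the highest bypass library; 8 lie under 0.6, and 4 lie at 0.899 to 1.25, above the dashed line of equal ratios.

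Colonies of transformed and of normal morphology were compared next. Of 888 tested members 4 were called, all higher in transformed colonies, against 6 of 59118 positions in all (0.0101%, with 0.00846% higher and 0.00169% lower). Groups did not overlap at 26 members (2.93%), against 2.26% of the next coverage tier and 1.73% of all positions. The forward position 7246068 of KB708201.1 was 93.1%, 96.1%, 97.6% and 92.7% methylated in transformed colonies, against 8.45%, 19.9%, 68.9% and 39.1% in normal colonies. The groups did not overlap, with a difference of 60.78 points (adjusted p = 0.000257), and the call held whichever library was left out. After thinning to 30 reads the difference was 59.17 points and the call was lost (adjusted p = 0.481), as were the other 3 calls at that depth (adjusted p = 0.481 to 0.885). The members tested had a median of 1211 reads, against 58.8 over all positions tested. The forward position 8559639 of KB708221.1 was at 99.4% to 99.8% in transformed colonies, against 67.5%, 57.3%, 89.5% and 63.3% in normal colonies (adjusted p = 0.0321). That call was lost on leaving out any of 5 of the 8 libraries (adjusted p = 0.0625 to 0.122 without them), and with at least 20 reads required (adjusted p = 0.0567).

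The other calls, named because the count was small, had overlapping groups. The reverse position 6309975 of KB708246.1 was 98.3%, 45.5%, 99.7% and 93.3% methylated in transformed colonies, against 49.4%, 0%, 50.3% and 10.02% in normal colonies (adjusted p = 7.57e-05). It was not called without transformed colony replicate 1 or 3 or normal colony replicate 4 (adjusted p = 0.312, 0.255 and 0.112), and not by edgeR (adjusted p = 0.111). The reverse position 2429397 of KB708285.1, with a mean of 11298 reads, was 64.2%, 76.9%, 67.5% and 65.7% methylated in transformed colonies, against 61.2%, 14.8%, 70.6% and 65.6% in normal colonies (adjusted p = 0.000766). Its difference of 15.52 points became 2.76 points without normal colony replicate 2 (adjusted p = 0.662). The call was also lost without transformed colony replicate 2, 3 or 4 or normal colony replicate 3 or 4 (adjusted p = 0.426 to 0.494), with differences of 12.74 to 21.38 points, with robust squeezing (adjusted p = 0.663) and with at least 20 reads required (adjusted p = 0.504). No member was called without squeezing of dispersions or with a prior that ignored coverage, and edgeR called 10 members (1.13%), 3 of these among the 4, against 0.0203% of all positions. The smallest adjusted p of edgeR was 1.37e-160, at a member, against 7.57e-05 with the quasi-binomial test. How far the edgeR fit allowed for the spread between colonies was not tested.

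Over all members, methylation averaged 59.42% ± 1.40 in the transformed and 57.22% ± 2.74 in the normal colonies (SD, n = 4 each). The ranges overlapped. The difference of 2.2 points became 0.910 points without normal colony replicate 2, which was at 53.3% while the other normal libraries were at 57.2% to 59.2%. Over the other positions listed in all libraries the means were 54.45% in transformed and 52.57% in normal colonies. Single members could differ greatly between colonies of 1 group: the forward position 22173463 of KB708132.1 was 100.0%, 70.3%, 61.5% and 84.6% methylated in transformed colonies, against 29.3%, 2.35%, 82.9% and 97.4% in normal colonies. It averaged 97.7% ± 2.83 in bypass and 90.4% ± 7.20 in senescent libraries, and 42.5% ± 15.2 in the B[a]P pools and 34.2% ± 6.68 in the vehicle pools.

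A single library also stood far above the other colonies in coverage at a cluster that the naming rules did not select, given here for its coverage. At KB708131.1 from 22688096 to 22688151, 8 forward positions held 0.00799% to 0.0107% of the reads in transformed colonies, against 0.0113%, 0.0680%, 0.0128% and 0.0135% in normal colonies. The high value was again that of normal colony replicate 2. Without it the normal libraries, at 0.0113% to 0.0135%, still lay above all transformed ones, by much less. In the pools the same cluster held 0.00668% to 0.0119% after B[a]P, against 0.00750%, 0.0358%, 0.0108% and 0.0233% in the vehicle pools, where replicates 2 and 4 were high. Its methylation stayed between 79.5% and 83.2% in the 6 group means.

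B[a]P pools and vehicle pools addressed the first days after exposure. None of the 911 tested members and none of the 31831 positions tested in all was called (0%) by the quasi-binomial test, and edgeR called none. The smallest adjusted p was 0.506 over members and 0.280 over all positions, and 70 members (7.68%) had an unadjusted p below 0.05, against 9.43% of all positions. With edgeR 47 members (5.16%) had such a p, against 2.19% of all positions, so the order of the shares depended on the tool. Groups did not overlap at 29 members (3.18%), against 2.49% of the next coverage tier and 1.80% of all positions.

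The members with the smallest p in the pools are given as values. The reverse position 8246575 of KB708208.1 was 55.9%, 67.9%, 69.4% and 63.3% methylated in the B[a]P pools, against 49.9%, 38.3%, 43.2% and 37.2% in the vehicle pools (adjusted p = 0.506). The forward position 22301042 of KB708139.1 averaged 94.9% ± 3.86 in the B[a]P pools and 76.3% ± 11.9 in the vehicle pools (adjusted p = 0.506). Base 2226 of KB710729.1, at 60884 to 110050 reads, averaged 73.8% ± 0.651 in the B[a]P pools and 72.1% ± 0.983 in the vehicle pools (adjusted p = 0.506). The groups did not overlap at the first and second of these and overlapped at the last.

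Mean methylation over members was 60.16% ± 0.271 in the B[a]P pools and 59.20% ± 1.37 in the vehicle pools (SD, n = 4 each). The ranges overlapped, and the difference of 0.962 points became 0.296 points without vehicle pool replicate 2. Over the other positions listed in all libraries the means were 54.11% in the B[a]P pools and 53.11% in the vehicle pools. The median difference of tested members was 0.72 points, beside 0.78 points over all positions tested. KB710729.1 from 2164 to 2226 averaged 80.1% ± 0.746 in the B[a]P pools and 78.3% ± 1.74 in the vehicle pools, and KB708184.1 from 10430103 to 10430166 averaged 60.4% ± 1.81 and 60.3% ± 0.656 in the same groups. The groups overlapped at both clusters.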

How the data were processed

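Per the file headers, the deposited tables list CpG positions by strand, with coverage as a count of reads and the percent of them with C or T. No position under 10 reads is listed, and the deposited coverage is not normalized. The tools named in the submitters' processing notes are methylKit 1.10.0, R 3.6.1, Bismark 0.22.1 with Bowtie2 also named, Trim Galore 0.5.0 and bcl2fastq 2.20.0.42. Whether PCR copies were removed, and the genome build, are not given in the sources used here. Reads from copies of 1 fragment are not independent, so depth overstates precision.

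Methylated reads were taken as the product of coverage and percent. Up to 1000 reads, 100% of products were whole within 0.06 reads. At the highest coverage the 2 decimals of the percent leave an error of up to 8.62 reads. Members of the set, clusters and named positions were chosen with earlier results of these data known. Named were the 5 clusters with most members (6 with a tie) and with the highest share, the 3 with the widest group range, and in each comparison up to 5 non-overlapping called members with the largest rise and fall, at most 1 per cluster, or the 3 with the smallest p. Some others, among them the cluster on KB708131.1, were given outside these rules.

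Positions were tested by quasi-binomial logistic regression in Python 3.11.15 with numpy 2.4.6 and scipy 1.17.1. Pearson dispersions were squeezed by limma 3.58.1 in R 4.3.3 with a trend on log2 mean coverage within 10 classes of level and a floor of 1, and p-values were adjusted over all positions. edgeR 4.0.16 was an alternative. The means over members and the coverage shares were not tested. Replicates were compared pair by pair, and their chi-square per degree of freedom was 15.3 to 59.2, so no pair agreed within sampling noise. Replicate numbers were checked for pairing: correlations of same-numbered libraries ran from -0.0196 to 0.0054, so the numbers did not pair the libraries. Mitochondrial positions were left out by the rule, 6 of which passed the coverage limit.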

Additional observations from a re-analysis of the deposited data

Results flagged for a closer look

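Values far from the other 3 libraries of their group were looked for in the 6 groups, over library-wide measures of the members and over the methylation of the 12 named clusters. Of 102 sets of 4 libraries, 12 had such a value, and chance gives about 1 in 20. The sets share libraries and related measures, so 1 library can be flagged several times. The count therefore cannot show an excess over chance.

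Normal colony replicate 2 stood apart in several measures. Its read share on members was 4.34%, against 5.63% to 5.80% in the other normal libraries, and 21.5% of its members were under 20% methylated, against 17.3% to 17.9%. At base 19586 of KB708466.1 it was 45.7% methylated, against 5.13% to 8.40%. At the same position transformed colony replicate 1 was at 37.1%, against 0.24% to 3.54%, and bypass replicate 1 at 74.1%, against 55.7% to 58.8%. Transformed colony replicate 1 also had 18.3% of members under 20% methylated, against 16.1% to 16.4%.

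Normal colony replicate 1 was at 35.6% in the KB708133.1 cluster, against 4.40% to 7.99%. Senescent replicate 2 had a mean methylation over members of 61.5%, against 59.9% to 60.1%, and 64.3% in the cluster of 56 positions on KB708128.1, against 63.1% to 63.3%. In B[a]P pool replicate 3, 47.1% of members were intermediate, against 48.9% to 49.2%. Vehicle pool replicate 2 was at 76.4% in the KB708154.1 cluster, against 78.6% to 79.1%. Transformed colony replicate 4 was at 0.865% in the KB708226.1 cluster, against 1.92% to 2.01%.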

How the results depend on the processing

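The count of 74 members called in bypass against senescent libraries became 32 without squeezing, 25 with edgeR and 2 after thinning to 30 reads (also 2 at positions with 30 or more reads, added after seeing the data), and 46 to 56 on leaving out 1 library. The 4 called in colonies became 2 with at least 20 reads, 0 without squeezing, 0 with a common prior, 0 after thinning, 10 with edgeR and 1 to 7 on leaving out 1 library. The 0 called in pools became 0 to 1 on leaving out 1 library. With the replicate block the counts were 67, 19 and 4, while 25.0%, 21.3% and 14.8% of all positions were called. The numbers did not pair the libraries, so this fit has no basis in the design. Weighting by reads moved the bypass difference in mean methylation to -0.63 points. In 109 planned repeats and 4 added after seeing the data, counts and means stayed within 1.5 times the value or within the replicate SD. The added repeats were robust squeezing and leaving out scaffolds of lower bypass coverage. The latter only removed positions from the main calls without a new fit, so it was not a separate test. Among named positions 32 repeats lost a call, and none of those that kept or lost a call changed direction. The causes were not tested. Depth limits the edge of the set, since the percentile differs between libraries.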
